A study of Caenorhabditis elegans with 6 samples.

Results

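The transthyretin-like genes of *Caenorhabditis elegans* form a family of small secreted proteins, and their RNA was followed here across the 6 libraries of a study of the succinate dehydrogenase subunit gene *sdhb-1*. Members were all genes of the deposited table whose name starts with *ttr-*, which gave 44 genes of 12798 and 124 merged exons of 53267. The rule uses the name alone, but the family was picked for description with earlier results of these data known. The family lay on chromosomes II (2 members), III (9), IV (8), V (14) and X (11). In a later Ensembl annotation, which uses the same WBcel235 assembly as the table, 58 genes carry a *ttr-* name and 43 of these were in the table. The remaining member, *ttr-4*, is a pseudogene without that name there. The other 15 annotated genes, among them *ttr-52* and *ttr-11*, were not analysed here. Every exon of the table reached at least 2.15 CPM (counts scaled to the size of the library) in at least 2 libraries, so a member is seen only through exons above that level.

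Transthyretin carries thyroid hormone in vertebrate blood. The nematode family was named for its similarity to this protein, is found in nematodes only, and is separate from the transthyretin-related hydrolases of the urate pathway. Most members are short secreted proteins without an assigned function, and members of the family are abundant in the secretions of parasitic nematodes. A few have a published role in *C. elegans*: TTR-52 bridges dying cells to the engulfment receptor CED-1, TTR-11 takes part in axon regeneration, and TTR-33 protects dopaminergic neurons from oxidative damage.

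The study asked how loss or mutation of *sdhb-1* alters larval physiology, and polyadenylated RNA of synchronized worms was sequenced in 1 library per condition. Wild type (WT) was the Bristol N2 strain at the L2, L3 and L4 larval stages. The gk165 (L2) library came from worms homozygous for the deletion *sdhb-1(gk165)*, which arrest as L2 larvae, so that WT (L2) and WT (L3) both served as controls. According to the paper, this deletion also removes part of the neighbouring gene *cup-15*. The R244H (L4) library was labelled *sdhb-1(gk165)/mIn1;R244H*. The strain held *gk165* over the balancer *mIn1*, which bears *dpy-10(e128)* and *gfp*, together with a single-copy transgene on chromosome X. That transgene expresses the R244H form of *sdhb-1* from its own promoter. The paper uses the name R244H for point mutants in the deletion background and states that they were balanced for propagation. The label does not say whether larvae homozygous for *gk165* were picked. The WTR (L4) library, labelled *sdhb-1(gk165);WTR*, had the *gk165* deletion and the wild-type transgene under the same promoter, and served with WT (L4) as the control of R244H. Each transgenic condition rests on 1 strain, and both transgenic strains may differ from N2 in the transformation marker. With 1 library per condition no test across conditions was possible, and every ratio below compares 2 libraries with an interval that covers counting error only.

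The table listed log2 RPKM, reads scaled by exon length and library size, for merged exons, and the reads behind each value were recovered from the steps between values. The recovered totals ranged from 188742 reads in WT (L2) to 867446 in WT (L4), with 279254 in gk165, and exons without a read made up 7.87% of all exons in WT (L4) and 50.3% in gk165. The *sdhb-1* gene itself had 32 reads for WT (L2), 142 for WT (L3), 165 for WT (L4), 44 for WTR and 68 for R244H, but 5 in gk165, none of them in its first 5 exons. Summed markers of body wall muscle reached 4416 CPM in gk165 and 10122 to 21621 CPM in the other libraries. Those of pharyngeal muscle reached 195 CPM in gk165 against 533 to 2211 CPM, and those of hypodermis 1777 CPM against 2169 to 8190 CPM. By the rule given below, 12.7% of all genes were lower in gk165. The lists gave 3 of 5 for body wall muscle, 3 of 3 for pharyngeal muscle and 4 of 6 for hypodermis. The collagen gene *dpy-13* alone had 322 gk165 reads in the hypodermis list. In it *elt-3* was not lower, at log2 ratios of 1.34 and 0.27. Molting genes summed to 762 CPM in gk165 against 2562 CPM for WT (L2) and 3498 CPM for WT (L3), with 7 of 13 lower. Germline markers summed to 285 CPM in R244H against 2247 CPM for WT (L4) and 2443 CPM for WTR, and sperm markers to 58.8 CPM against 3335 and 4343 CPM. In such whole-worm libraries, fewer cells of a type and less RNA per cell cannot be told apart. The exons listed for the muscle markers summed to between 1361 bp (*tnt-4*) and 6548 bp (*myo-1*), and long genes were more often called lower in gk165, as described below. The part of length in the muscle sums was not tested.

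The family took a larger part of the RNA in gk165 than in any other library. Its members together accounted for 0.808% of the recovered reads there (95% exact binomial interval 0.775 to 0.842%), against 0.190% in WT (L2) (0.171 to 0.211%) and 0.218% in WT (L3) (0.206 to 0.230%). The L4 libraries lay close to each other, at 0.25% in WT (L4) (0.240 to 0.261%) and 0.229% in WTR (0.216 to 0.242%), with R244H above both at 0.304% (0.287 to 0.321%). On the scale of normalized counts the summed level was 8171 CPM for gk165, 1546 CPM for WT (L2), 2269 CPM for WT (L3), 2712 CPM for WT (L4), 2379 CPM for WTR and 3151 CPM for R244H. A single gene, *ttr-15*, provided 37.1% of the family's reads in gk165 and between 12.1 and 20.6% in the other libraries. Without *ttr-15* the order of the mutants and their controls was the same: 5141 CPM in gk165 against 1280 CPM for WT (L2) and 1802 CPM for WT (L3), and 2617 CPM for R244H against 2383 CPM for WT (L4) and 2078 CPM for WTR.

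**Figure D1:**
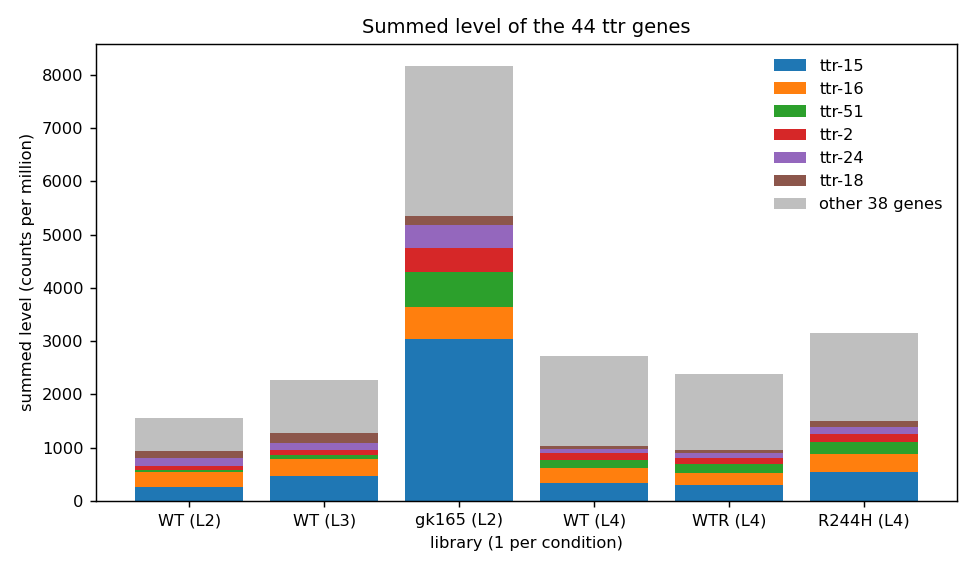
Summed level of the 44 *ttr* genes in CPM (vertical axis) in each of the 6 libraries (horizontal axis), 1 bar per library, with the 6 genes of highest mean RPKM in colour and the other 38 in grey. The gk165 bar reaches 8171 CPM while the other bars lie between 1546 and 3151 CPM, and *ttr-15* is the largest coloured segment of the gk165 bar.

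The members differed widely in level. The number with more than 3 reads was 21 for WT (L2), 32 for WT (L3), 30 for gk165, 38 for WT (L4), 30 for WTR and 33 for R244H, and 14, 6, 6, 1, 2 and 2 members, in the same order, had no read at all. Counted by level, 21 members stood at 100 RPKM or more in gk165, against 6 for WT (L2), 12 for WT (L3), 14 for WT (L4), 12 for WTR and 13 for R244H. For 25 of the 44 members the gk165 library held the highest RPKM of the 6. The map of all members shows that these genes were spread over the family and were not limited to its most abundant members. Neither this count nor that at 100 RPKM was made over all genes. Whether other short genes would give a like share was not tested, so the counts describe the members only.

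**Figure D2:**
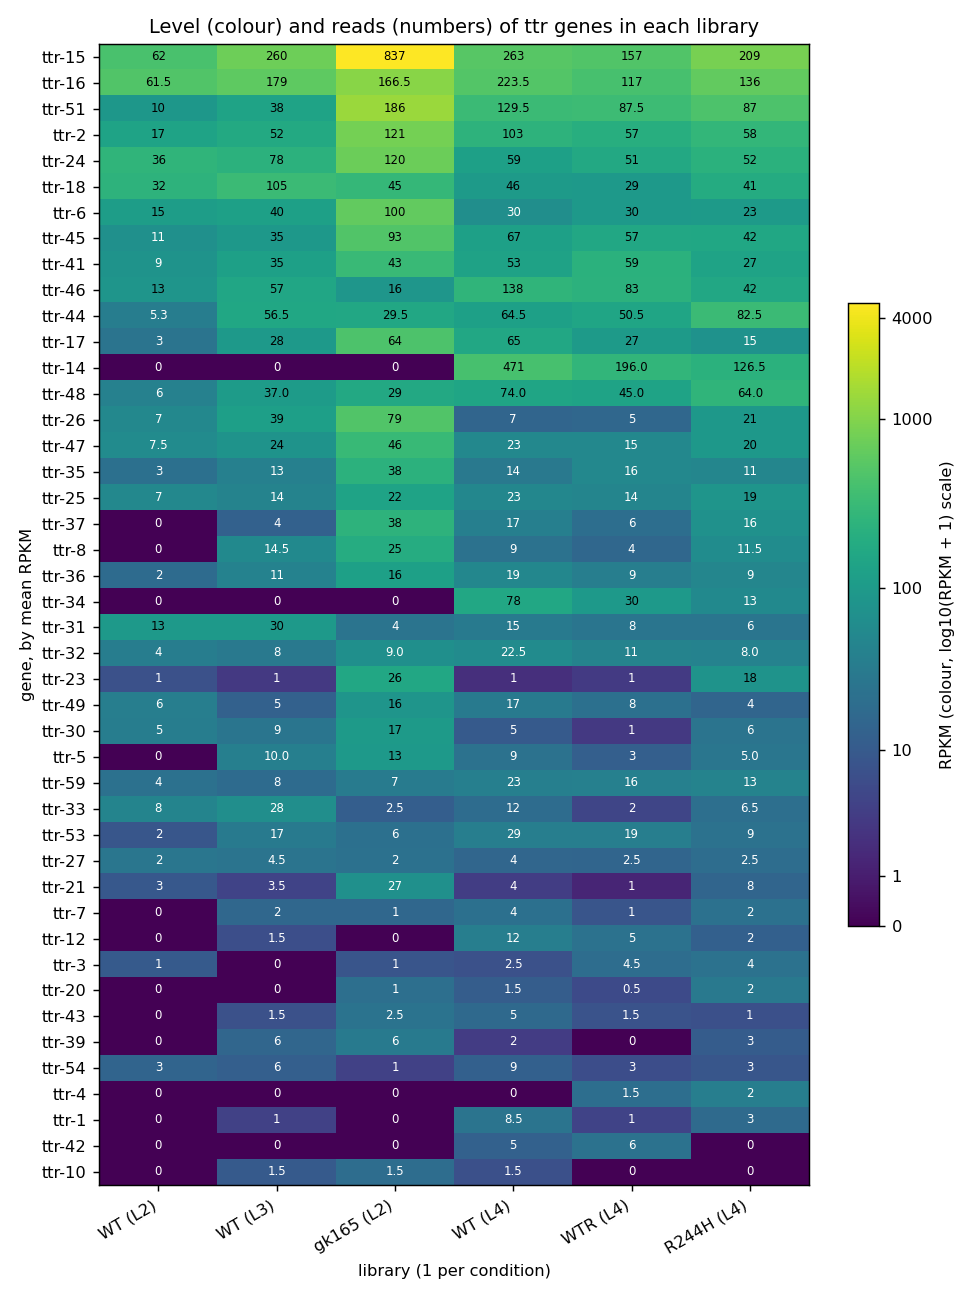
Each row is 1 of the 44 *ttr* genes, ordered by mean RPKM, and each column 1 of the 6 libraries; colour gives the RPKM on a log10(RPKM + 1) scale and the number in each cell the reads recovered for that gene. The gk165 column is the brightest for 25 genes, a count not made over all genes, whereas *ttr-14* and *ttr-34* have reads in the L4 libraries only.

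The most abundant member by mean RPKM was *ttr-15* (WBGene00011561), on the plus strand of chromosome III:10337840-10339440 with 2 listed exons. It had 62 reads for WT (L2), 260 for WT (L3), 837 for gk165, 263 for WT (L4), 157 for WTR and 209 for R244H. These correspond to 433, 758, 4918, 534, 488 and 867 RPKM, so that gk165 stood far above the other 5 libraries and R244H above the other L4 libraries. The gk165 level was 11.4-fold that of WT (L2) (log2 ratio 3.51, 95% counting interval 3.13 to 3.90) and 6.49-fold that of WT (L3) (2.70, 2.50 to 2.90). The R244H level was 1.62-fold that of WT (L4) (log2 ratio 0.70, 0.43 to 0.97) and 1.78-fold that of WTR (0.83, 0.52 to 1.1), which is above 1 beyond counting error but under 2-fold.

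The next member, *ttr-16* (chromosome IV:11063512-11064152), showed a flatter profile. Its levels were 484 RPKM for WT (L2), 588 for WT (L3), 1102 for gk165, 511 for WT (L4), 410 for WTR and 635 for R244H, from 61.5, 179, 166.5, 223.5, 117 and 136 reads. The gk165 library was again the highest, 2.28-fold WT (L2) (log2 ratio 1.19, 0.74 to 1.62) and 1.87-fold WT (L3) (0.91, 0.59 to 1.22). One of its exons is overlapped over 227 bp by *lin-3*, an epidermal growth factor gene on the opposite strand, and without that exon the log2 ratios were 0.51 and 0.18.

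A gene was counted as higher or lower in a mutant where reads pooled over its exons differed at least 2-fold from both controls and both 95% counting intervals left out equality. For this rule, the medians and the plots, a library with 3 or fewer reads was entered at a floor of 3, whereas a ratio printed for a gene with 1 to 3 reads is that of the reads as counted, with its interval, and lies at least as far from equality as the ratio on the floor. Of the 31 members with more than 3 reads in at least 1 library of both comparisons, 19 were higher in gk165 by this rule, which is 61.3% of them. It called 11.7% of the 7824 genes tested. A single member, *ttr-31*, was lower in gk165, against 12.7% of all genes, 11 members met neither condition, and 13 had too few reads. The median log2 ratio of the members was 2.02 to WT (L2), beside 0.17 over all genes tested, and 1.63 to WT (L3), beside -0.10 over all genes. Members enter such a count more easily where they are high: 10 members were tested against WT (L2), and 1 against WT (L3), only because of their reads in gk165. Among those with more than 3 reads in both libraries the medians were 1.76 (20 members) and 1.66 (29 members). With at least 50 reads in 1 of the libraries, 8 of 9 members were higher, beside 25.5% of all genes. This minimum also favours members high in gk165. In WT (L2) only *ttr-15* and *ttr-16* reached it, so the others passed against that library through gk165 alone. Abundant members with fewer gk165 reads, such as *ttr-18* (45) and *ttr-46* (16), were left out.

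**Figure D3:**
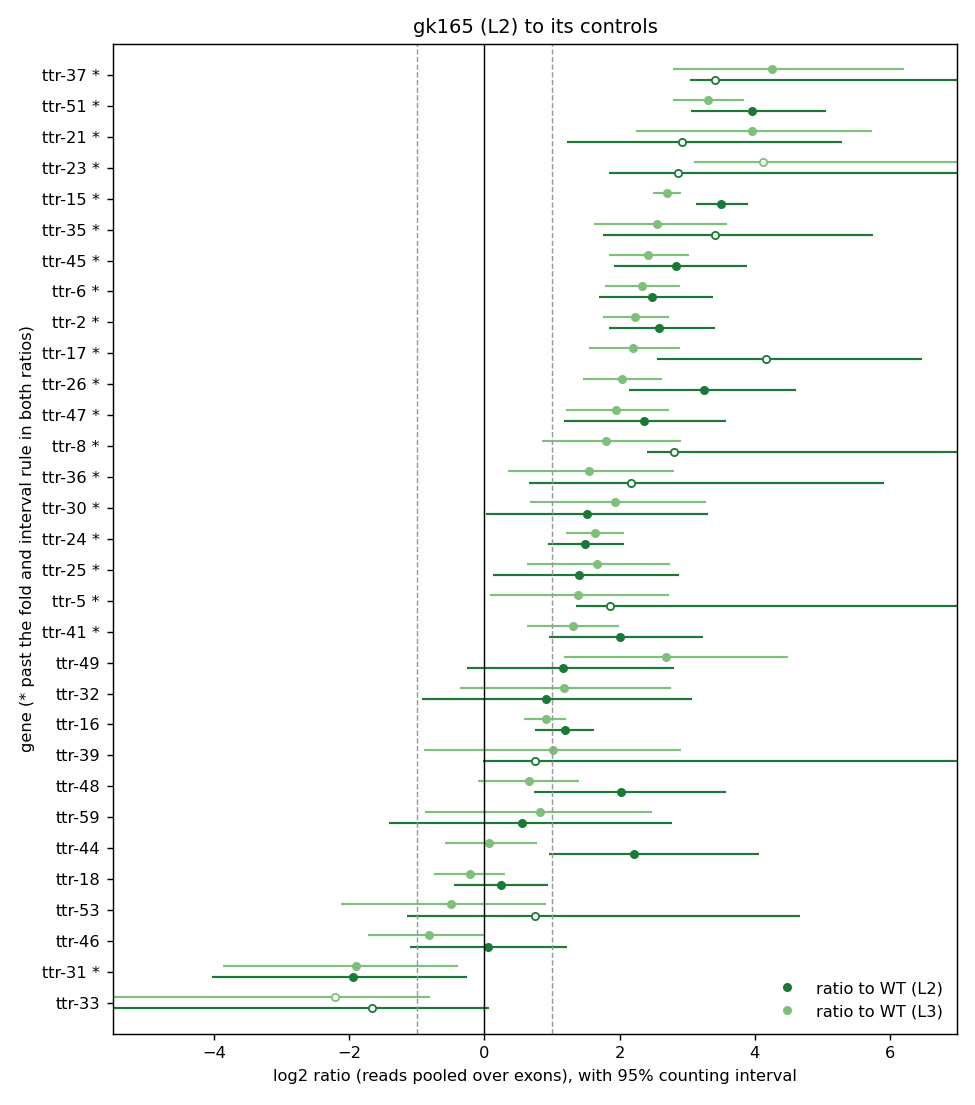
Log2 ratio of gk165 (L2) to WT (L2) (dark green) and to WT (L3) (light green) on the horizontal axis for the 31 *ttr* genes tested (vertical axis), with lines for 95% counting intervals, open points where 1 library had 3 or fewer reads and was set to 3, and dashed lines at a 2-fold difference. In all, 26 genes (83.9%, beside 42.5% of all genes) lie right of 0 in both ratios, and asterisks mark the 19 higher and the 1 lower gene (*ttr-31*).

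Among the abundant members, *ttr-51* (chromosome IV:13250648-13252311, minus strand) had the largest ratios. It had 10 reads for WT (L2), 38 for WT (L3), 186 for gk165, 129.5 for WT (L4), 87.5 for WTR and 87 for R244H. The gk165 level was 15.6-fold that of WT (L2) (log2 ratio 3.97, 3.06 to 5.05) and 9.87-fold that of WT (L3) (3.30, 2.79 to 3.85). Of its 186 reads in gk165, 182.5 lay in the 3' exon, which the opposite-strand gene JC8.7 overlaps by 52 bp. The remaining exon had 1.5, 2 and 3.5 reads in WT (L2), WT (L3) and gk165, so that the difference rests on that single exon.

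Other members among the 10 most abundant were also higher in gk165 than in both younger controls. The *ttr-2* gene had 17 reads for WT (L2), 52 for WT (L3), 121 for gk165, 103 for WT (L4), 57 for WTR and 58 for R244H, which gave log2 ratios of 2.58 (1.84 to 3.41) and 2.23 (1.75 to 2.73) for gk165 against WT (L2) and WT (L3). For *ttr-6* the reads were 15, 40, 100, 30, 30 and 23 in the same order, and the ratios 2.49 (1.70 to 3.38) and 2.33 (1.79 to 2.90). In both genes gk165 had the highest RPKM of all libraries, at 822 RPKM for *ttr-2* and 629.5 RPKM for *ttr-6*. The *ttr-45* gene, which lies 1913 bp from *ttr-51*, had 11, 35, 93, 67, 57 and 42 reads, and its ratios were 2.83 (1.92 to 3.88) and 2.42 (1.85 to 3.03). For *ttr-41*, with 9, 35, 43, 53, 59 and 27 reads, the ratios were 2.01 (0.95 to 3.23) and 1.31 (0.63 to 1.99), but 39.5 of its 43 gk165 reads lay in the 3' exon, and without it the ratios were -1.03 and -1.54. The ratios of *ttr-41* therefore had opposite signs in its 2 exons. The negative ones rest on 3.5 gk165 reads, against 6 in WT (L2) and 20.5 in WT (L3), and neither was called lower.

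The neighbours *ttr-24*, *ttr-25* and *ttr-26*, within a stretch of chromosome V, were all higher in gk165. The *ttr-24* gene had 36 reads for WT (L2), 78 for WT (L3), 120 for gk165, 59 for WT (L4), 51 for WTR and 52 for R244H, with log2 ratios of 1.49 (0.94 to 2.07) and 1.63 (1.21 to 2.06) to WT (L2) and WT (L3). The *ttr-26* gene had 7, 39, 79, 7, 5 and 21 reads, with ratios of 3.25 (2.14 to 4.61) and 2.03 (1.46 to 2.62). Its profile was unlike that of *ttr-24*: at L4 both control libraries had few reads and R244H was above them. The third gene, *ttr-25*, had 7, 14, 22, 23, 14 and 19 reads. Other neighbouring pairs were *ttr-36* and *ttr-35*, both higher, whereas *ttr-17* was higher and its neighbour *ttr-16* was not, and *ttr-30* was higher and its neighbour *ttr-59* was not.

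Members with few or no reads in young wild-type larvae gave the steepest ratios and the widest intervals. The *ttr-37* gene had 0 reads for WT (L2), 4 for WT (L3), 38 for gk165, 17 for WT (L4), 6 for WTR and 16 for R244H. Its gk165 level exceeded that of WT (L2) at least 10.7-fold, against a floor of 3 reads in that library, and was 19.1-fold that of WT (L3) (log2 ratio 4.26, 2.79 to 6.21). For *ttr-23* there was 1 read in each of WT (L2), WT (L3), WT (L4) and WTR, but 26 reads for gk165 and 18 for R244H. Both mutant libraries thus stood apart from all 4 controls for this gene. The ratio of gk165 was 21.9-fold to WT (L2) (log2 interval 1.84 to 9.81) and 52.4-fold to WT (L3) (3.11 to 11.07), with widths set by the single control reads, and 7.29- and 17.5-fold with those reads at the floor of 3.

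The *ttr-21* gene, with 3, 3.5, 27, 4, 1 and 8 reads in WT (L2), WT (L3), gk165, WT (L4), WTR and R244H, was 7.57-fold higher in gk165 than in WT (L2) (log2 interval 1.22 to 5.28) and 15.5-fold higher than in WT (L3) (2.24 to 5.74). Another gene on the same strand, *srx-134*, a chemoreceptor gene, overlaps 383 bp of its 1376 bp. The *ttr-35* gene had 3, 13, 38, 14, 16 and 11 reads, a ratio of 10.7 to WT (L2) (log2 interval 1.76 to 5.75) and a log2 ratio of 2.56 (1.62 to 3.59) to WT (L3). For *ttr-17* the reads were 3, 28, 64, 65, 27 and 15, the ratio to WT (L2) 17.9-fold (log2 interval 2.55 to 6.48) and the log2 ratio to WT (L3) 2.20 (1.54 to 2.90). In these genes gk165 had the highest RPKM of the 6 libraries, at 71.0 RPKM for *ttr-21*, 236 for *ttr-35* and 457 for *ttr-17*.

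Not all members followed this pattern. The *ttr-31* gene (chromosome X:11008266-11009070) had 13 reads for WT (L2), 30 for WT (L3), 4 for gk165, 15 for WT (L4), 8 for WTR and 6 for R244H, and was lower in gk165, at -1.95 (-4.02 to -0.26) and -1.90 (-3.86 to -0.39) on the log2 scale. The *ttr-33* gene had 8, 28, 2.5, 12, 2 and 6.5 reads. Its log2 ratio of gk165 to WT (L3) was -2.47 (-5.91 to -0.81), or -2.21 on the floor, and the interval to WT (L2) included equality (-1.93, -5.52 to 0.08). This member, whose protein protects dopaminergic neurons, shares 200 bp with *txt-5* on the same strand, and its other exon had 0, 7.5 and 0.5 reads in the 3 young larval libraries. The ratios of *ttr-31* and *ttr-33* were the 2 lowest among the members, with wide intervals from 4 and 2.5 reads in gk165.

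For 2 of the 10 most abundant members gk165 did not stand above the controls. The *ttr-18* gene had 32, 105, 45, 46, 29 and 41 reads in WT (L2), WT (L3), gk165, WT (L4), WTR and R244H, and its log2 ratios for gk165 were 0.24 (-0.44 to 0.94) and -0.21 (-0.75 to 0.31). The *ttr-46* gene had 13, 57, 16, 138, 83 and 42 reads, with ratios of 0.05 (-1.10 to 1.23) and -0.82 (-1.72 to -0.0016). It was thus below WT (L3) narrowly beyond counting error, though under 2-fold. Without its 3' exon the ratio to WT (L3) was -2.05, from 4.5 gk165 reads, and was called lower against that library. Among the less abundant genes, *ttr-44* and *ttr-48* were above WT (L2) by log2 ratios of 2.22 (0.96 to 4.06) and 2.02 (0.73 to 3.58) but close to WT (L3), at 0.07 (-0.58 to 0.78) and 0.66 (-0.09 to 1.40).

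The gk165 library was more strongly weighted to the 3' end of genes than the others, and the members are short. Over genes of more than 1 exon and at least 20 reads, the median share of reads in the 3'-most listed exon was 60.0% in gk165, 41.1 and 32.8% in the wild-type L2 and L3 libraries, and 25.5 to 27.6% in the L4 libraries. For the pooled reads of the members these shares were 75.4% for gk165, 52.4% for WT (L2), 49.9% for WT (L3), 38.7% for WT (L4), 40.6% for WTR and 41.8% for R244H. Over all genes the proportion called higher in gk165 fell steadily with listed exon length, from 26.1% below 400 bp to 19.9% at 400 to 800 bp and 1.09% at 3000 bp or more, while that called lower was 0.79% below 400 bp and 29.8% at 3000 bp or more. The median listed length was 573 bp for members and 965 bp for all genes.

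**Figure D4:**
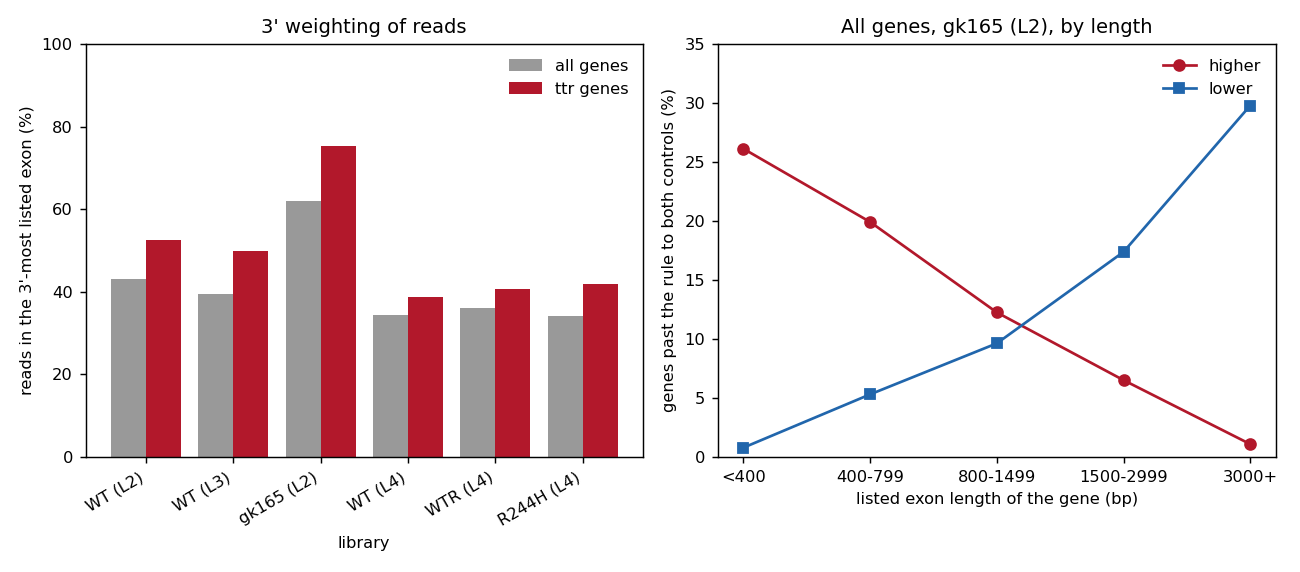
Left, percentage of pooled reads in the 3'-most listed exon (vertical axis) in each library (horizontal axis) for all genes (grey) and the *ttr* genes (red); right, percentage of all genes tested that were higher (red) or lower (blue) in gk165 than in both controls, by listed exon length in bp. The gk165 bars are the tallest, 75.4% for the *ttr* genes, and the share of higher genes falls from 26.1 to 1.09% with length.

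Set beside genes of the same size, between 400 and 800 bp, 18 of 29 members (62.1%) were higher in gk165, beside 19.9% of the 1681 genes tested. With the 3'-most exon left out of every gene, 13 of 24 members (54.2%) were higher, beside 5.39% of 5458 genes, and the members' median log2 ratio was 1.61 against WT (L2) and 1.23 against WT (L3), beside -0.47 and -0.49 over all genes. These 13 were *ttr-2*, *ttr-6*, *ttr-15*, *ttr-17*, *ttr-21*, *ttr-23*, *ttr-24*, *ttr-25*, *ttr-26*, *ttr-36*, *ttr-37*, *ttr-45* and *ttr-47*. Of these, *ttr-17*, *ttr-21*, *ttr-23*, *ttr-36* and *ttr-37* then had 3 or fewer reads in WT (L2) and were tested against it only through gk165. Members without a call, such as *ttr-44* and *ttr-48*, also entered in this way. The 10.5 gk165 reads left for *ttr-21* lay in the exon that *srx-134* overlaps, so this call cannot be assigned to *ttr-21* alone. The ratios of *ttr-15* became smaller without its 3' exon. Its first exon had 13, 63 and 75 reads in WT (L2), WT (L3) and gk165, which gave 2.28 and 1.26, whereas its 3' exon had 49, 197 and 762 reads. The calls of *ttr-5*, *ttr-8*, *ttr-30*, *ttr-35*, *ttr-41* and *ttr-51* were not met without the 3' exon, and the lower call of *ttr-31* was met neither without that exon nor with it alone. How far the 3' weighting contributed to the level of the family in gk165 was not tested beyond these values, nor was the part of the lower muscle and hypodermis markers.

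In R244H the difference was smaller and concerned few members. Of 35 members tested against both WT (L4) and WTR, 5 were higher (14.3%), beside 7.4% of the 9668 genes tested, and none was lower, beside 17.8% of all genes. These 5 were *ttr-8*, *ttr-21*, *ttr-23*, *ttr-26* and *ttr-44*, of which all but *ttr-44* were also among the 19 higher in gk165, which is 80% of the first list and 21.1% of the second. Over the 7098 genes tested in both mutants, 218 were higher in both, 32.8% of those higher in R244H and 27.1% of those higher in gk165. With at least 50 reads in 1 of the libraries, 1 of 11 members was higher in R244H, beside 10% of all genes. With the 3'-most exon alone it was 1 of 28, beside 5.32%, and with the exon of highest mean level alone 0 of 29, beside 5.34%, so that the members' share lay above that of all genes only in part of these settings. The median log2 ratio of members was 0.34 to WT (L4), beside -0.19 over all genes, and 0.42 to WTR, beside -0.25. Ratios above 0 to both controls were found for 21 of 35 members (60.0%), beside 35.2% of all genes. In the same library all 10 germline markers and 30 of 31 sperm markers tested were lower than in both controls, and 6 of 13 molting genes were higher; their part in the ratios of the family was not tested.

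**Figure D5:**
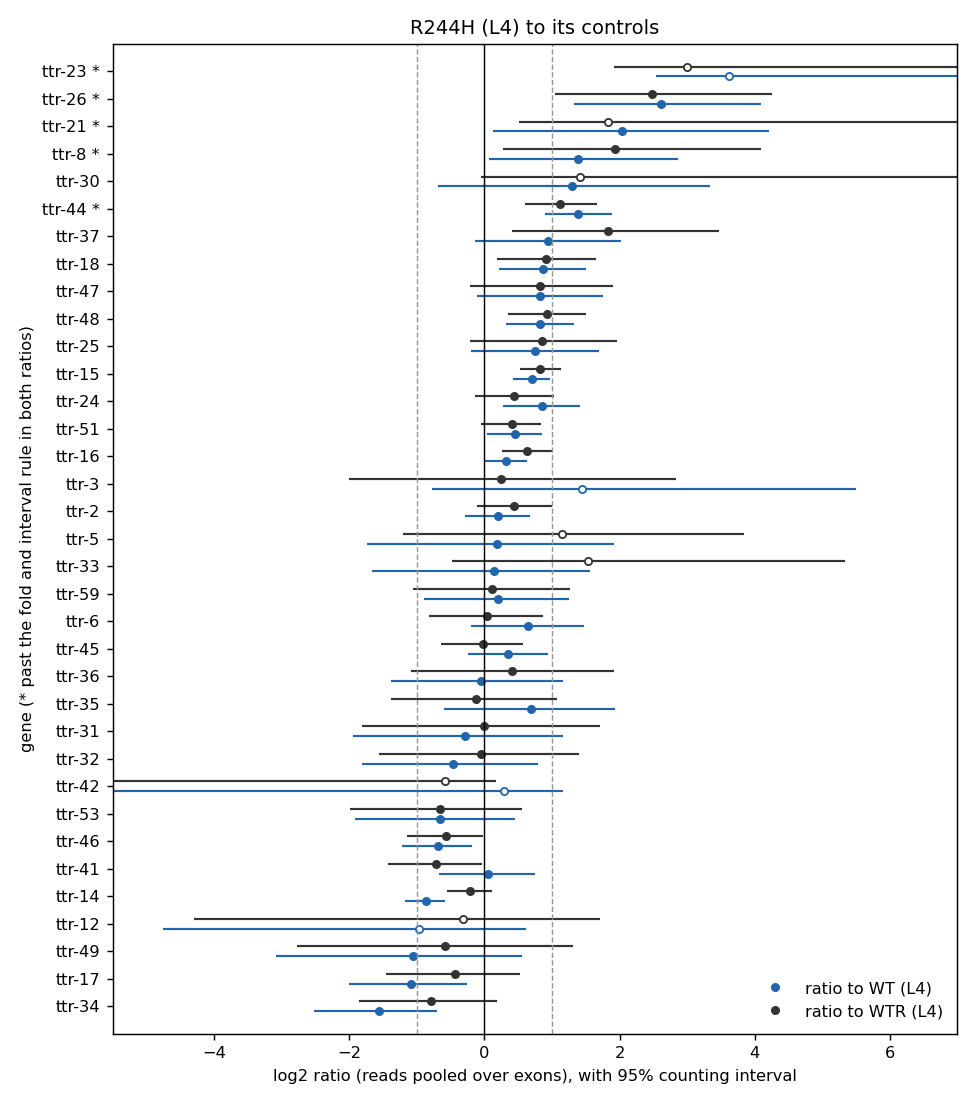
Log2 ratio of R244H (L4) to WT (L4) (blue) and to WTR (L4) (black) on the horizontal axis for the 35 *ttr* genes tested (vertical axis), with 95% counting intervals, open points where 1 library had 3 or fewer reads and was set to 3, and dashed lines at a 2-fold difference. The 5 genes with asterisks are higher than both controls, and 21 genes lie right of 0 in both ratios.

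The largest difference belonged to *ttr-23* (chromosome V:10589092-10589898), whose 18 reads in R244H stood against 1 read for WT (L4) and 1 for WTR. The ratios were 36.8-fold (log2 interval 2.54 to 10.58) and 24.0-fold (1.92 to 9.97), or 12.3- and 8.0-fold on the floor. Its R244H reads were spread over all 3 listed exons, as 3, 3.5 and 11.5 reads. For *ttr-26*, with 21 reads for R244H, 7 for WT (L4) and 5 for WTR, the log2 ratios were 2.62 (1.33 to 4.09) and 2.49 (1.04 to 4.25). Both genes had levels in R244H, 78.6 and 91.6 RPKM, under those in gk165, 161 and 488 RPKM.

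The other 3 calls depended on an exon that another gene overlaps. The *ttr-44* gene (chromosome V:13529562-13530744) had 5.33 reads for WT (L2), 56.5 for WT (L3), 29.5 for gk165, 64.5 for WT (L4), 50.5 for WTR and 82.5 for R244H, and R244H held the highest level of the 6 libraries at 324 RPKM. Its log2 ratios were 1.39 (0.90 to 1.88) to WT (L4) and 1.12 (0.60 to 1.67) to WTR. Without the exon that R11G10.3 overlaps on the opposite strand they were 1.18 and 0.98, the second just under 2-fold. R11G10.3 itself had 0 reads in WT (L4), 2 in WTR and 0 in R244H. The *ttr-8* gene had 0, 14.5, 25, 9, 4 and 11.5 reads, and R244H ratios of 1.38 (0.08 to 2.87) and 1.94 (0.28 to 4.09). Its gk165 level exceeded that of WT (L2) at least 7.01-fold, and its log2 ratio to WT (L3) was 1.80 (0.85 to 2.90). Apart from the exon that *lgc-12*, an ion channel gene, overlaps, *ttr-8* had 4 reads or fewer in every library. The reads of *lgc-12* itself were 4 in gk165, 0 in WT (L4), 0 in WTR and 0.5 in R244H. For *ttr-21* the R244H ratio was 4.09-fold to WT (L4) (log2 interval 0.13 to 4.21) and 10.7-fold to WTR (0.52 to 8.89), from 8, 4 and 1 reads, with 3.56-fold to WTR on the floor.

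No member among the 10 most abundant reached 2-fold in R244H against both controls. For *ttr-51* the log2 ratio was 0.46 (0.04 to 0.85) to WT (L4) and 0.41 (-0.05 to 0.84) to WTR, and for *ttr-2* it was 0.20 (-0.29 to 0.68) and 0.44 (-0.11 to 0.99). For *ttr-18* the ratios were 0.86 (0.22 to 1.50) and 0.91 (0.19 to 1.65), and for *ttr-48* 0.82 (0.32 to 1.32) and 0.92 (0.35 to 1.51). These last 2 genes were above both controls beyond counting error while staying under 2-fold. In the opposite direction, *ttr-46* had ratios of -0.69 (-1.22 to -0.18) and -0.57 (-1.14 to -0.02). The *ttr-34* and *ttr-17* genes were lower than WT (L4), by -1.55 (-2.53 to -0.70) and -1.08 (-2.0 to -0.26), but their intervals to WTR included equality. The *ttr-37* gene, among the steepest in gk165, was above WTR by 1.83 (0.40 to 3.47), with an interval to WT (L4) that included equality (0.94, -0.14 to 2.02). In all, 30 members met neither condition in R244H, and 9 had too few reads there: *ttr-1*, *ttr-4*, *ttr-7*, *ttr-10*, *ttr-20*, *ttr-27*, *ttr-39*, *ttr-43* and *ttr-54*.

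The wild-type stages put these differences beside normal larval growth. From WT (L2) to WT (L3), 5 of 32 members were higher (15.6%), beside 8.56% of 8924 genes, and none was lower, beside 1.39%. They were *ttr-8*, *ttr-17*, *ttr-26*, *ttr-44* and *ttr-48*. The clearest was *ttr-44*, with a log2 ratio of 2.15 (0.92 to 3.90). The reads of *ttr-48* were 6 for WT (L2), 37 for WT (L3), 29 for gk165, 74 for WT (L4), 45 for WTR and 64 for R244H, and its ratio from L2 to L3 was 1.36 (0.11 to 2.90). For *ttr-26* the ratio was 1.22 (0.04 to 2.62), for *ttr-17* it was 3.89-fold (log2 interval 0.27 to 4.32), and *ttr-8* was at least 2.02-fold higher. WT (L2) was the shallowest library, and scaled by the recovered read totals *ttr-44* alone was higher, beside 3.35% of all genes.

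From WT (L3) to WT (L4), 3 of 39 members were higher (7.69%), beside 17.8% of 10882 genes, and 4 were lower, beside 11.9%. The largest of all these ratios was that of *ttr-14* (chromosome X:10787503-10789700), the longest member with 9 listed exons. It had no read in WT (L2), WT (L3) or gk165, but 471 reads for WT (L4), 196 for WTR and 126.5 for R244H, spread over all 9 exons. Its WT (L4) level exceeded that of WT (L3) at least 109-fold, on a floor of 3 reads, and *vap-2* on the opposite strand overlaps 90 bp of 1 exon, without which WT (L4) had 423.5 reads. The *ttr-34* gene had the same profile, with 0 reads in the 3 younger libraries and 78, 30 and 13 reads in WT (L4), WTR and R244H, and was at least 18.1-fold higher in WT (L4). The third was *ttr-51*, with a log2 ratio of 1.25 (0.72 to 1.81). The levels of *ttr-14* and *ttr-34* in WT (L4) were 416 and 164 RPKM. With 0 reads in gk165, a level of up to 10.9 CPM (3 reads) is possible there. That bound is not scaled by exon length and cannot be set directly beside the RPKM values. Both *ttr-42* and *ttr-4* also had reads at L4 alone, but 6 or fewer in any library.

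The 4 members lower in WT (L4) than in WT (L3) were *ttr-18*, with a log2 ratio of -1.71 (-2.25 to -1.20), *ttr-26*, with -3.0 (-4.41 to -1.82), *ttr-31*, with -1.52 (-2.52 to -0.58), and *ttr-33*, with -1.74 (-2.85 to -0.72). The *ttr-26* gene was thus the one member whose level was higher at L3 than at L2, lower at L4, and higher in both mutants than in their own controls. Its RPKM values were 51.4 for WT (L2), 120 for WT (L3), 488 for gk165, 14.9 for WT (L4), 16.3 for WTR and 91.6 for R244H.

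Between the 2 L4 controls no member met the criterion. Of 39 members tested, none was 2-fold higher and none 2-fold lower in WTR than in WT (L4), beside 3.19 and 2.9% of all genes, and the median log2 ratio was -0.12, beside 0.03 over all genes. Counting intervals left out equality for 1 member above and 2 below, beside 6.9 and 7.9% of all genes.

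The 21 members not yet described in full had mean levels of 6.15 to 107 RPKM and 3.5 to 135.5 reads over all libraries. Of these, *ttr-5*, *ttr-25*, *ttr-30*, *ttr-36* and *ttr-47* were higher in gk165. The most abundant, *ttr-47*, had 7.5 reads for WT (L2), 24 for WT (L3), 46 for gk165, 23 for WT (L4), 15 for WTR and 20 for R244H, and log2 ratios of 2.37 and 1.95. The *ttr-32*, *ttr-39*, *ttr-49*, *ttr-53* and *ttr-59* genes were tested in gk165 without a call. The other 11, *ttr-1*, *ttr-3*, *ttr-4*, *ttr-7*, *ttr-10*, *ttr-12*, *ttr-20*, *ttr-27*, *ttr-42*, *ttr-43* and *ttr-54*, were not tested against both controls of gk165, nor were *ttr-14* and *ttr-34*. Of these, *ttr-27* and *ttr-54* were tested against WT (L3) alone, without a call. For the rest no comparison of gk165 with its controls can be made at this depth.

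Exons of 13 members are overlapped by another gene, and whether strand was used in counting is not given in the sources used here. With those exons left out, 17 of 27 members were higher in gk165 (without *ttr-8* and *ttr-51*), beside 11.7% of all genes. In R244H 2 of 33 were higher (*ttr-23* and *ttr-26*), beside 7.37% of all genes, a share no larger than that background. The *ttr-4* pseudogene lies wholly within *cbp-3*. Its 1 exon had the same length, 138 bp, and the same reads in every library, 1.5 for WTR and 2 for R244H, as an exon of *ttr-3*, and reads shared between them cannot be told apart.

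Genes listed for the removal of dying cells, the process in which TTR-52 acts, were called at shares near those of all genes. Of 12 genes for the engulfment of apoptotic cells in the table, 11 were tested: *nrf-5*, a secreted lipid-binding protein that acts with TTR-52, was higher, *dyn-1*, the dynamin gene, was lower, and 9 had no call, beside 11.7 and 12.7% of all genes. The *nrf-5* gene had 2 reads for WT (L2), 16 for WT (L3) and 18 for gk165, and *dyn-1* had 34, 85 and 14. In R244H none of 12 was higher, and *ced-2*, an adaptor gene, and *psr-1*, the phosphatidylserine receptor gene, were lower, beside 7.4 and 17.8% of all genes. The one urate-pathway hydrolase gene of the table, R09H10.3, had no call in either mutant, with 6 reads for WT (L2), 12 for WT (L3) and 5 for gk165.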

How the data were processed

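The authors trimmed paired-end reads with Trim Galore 0.4.1 and cutadapt 1.14, aligned them to WBcel235 with TopHat2 2.1.0 and Bowtie2, counted merged exons of Ensembl release 94 with featureCounts, and normalized with edgeR 3.26.8. The deposited values are log2 RPKM, 1 per merged exon and library, in a single table. Every listed exon reached at least 2.15 CPM in at least 2 libraries. The deposited log2 values hold an offset of 0.540 CPM, which was removed. Reads were then recovered from the value steps: 100% fell on hundredths of a read and 54.0% were whole (tolerance 0.0005 reads).

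Reads were pooled over the listed exons of a gene and scaled by the authors' effective library sizes, from 232363 in WT (L2) to 799673 in WT (L4). Ratios carry exact binomial (Clopper-Pearson) 95% intervals on rounded reads, which cover counting error only. A gene was tested if more than 3 reads were found in 1 of the libraries compared. No p-values were computed, since each condition had 1 library. The steps were tested on simulated counts.

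The members and lists were chosen with earlier results of these data known. Values in all libraries are given for the 10 members of highest mean RPKM, the 6 largest called differences per direction in each mutant, the 5 largest per direction between stages, and *ttr-33*. Analyses of overlapped and 3' exons, and of listed length, were chosen after seeing the data. Python 3.11.15, pandas 2.3.3 and scipy 1.17.1 were used.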

Additional observations from a re-analysis of the deposited data

How the results depend on the processing

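The count of members higher in gk165 stayed between 13 and 22 of those tested under all alternatives but the minimum of 50 reads, where 8 of 9 were higher. Of these 9, all but *ttr-15* and *ttr-16* met that minimum against WT (L2) only through gk165. The count lower in gk165, 1 in the report, was 0 with 50 reads, without the 3'-most exon and with that exon only, and 2, with *ttr-33* added, under recovered read totals, centring on the median of all genes, mean RPKM with a pseudocount of 1, the offset left in, 2-fold without the interval, and WT (L3) as the only control. Recovered totals moved the median log2 ratio of all genes, gk165 to WT (L2), from 0.17 to -0.15.

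The 5 of 35 members higher in R244H, beside 7.4% of all genes, became 9 of 35 after centring (beside 10.2%), 3 of 35 at 3-fold (3.84%), 3 of 31 without the 3'-most exon (6.84%), 2 of 25 without overlapped members (7.4%), 2 of 33 without overlapped exons (7.37%), 1 of 11 with 50 reads (10%), 1 of 28 with the 3'-most exon only (5.32%) and 0 of 29 with the highest exon only (5.34%); the cause was not tested. The 0 lower became 1 (*ttr-42*) with mean RPKM or the offset left in, and 2 against WT (L4) alone.

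From L2 to L3 the 5 higher members became 11 with mean RPKM, 10 with the offset left in, 3 without overlapped members, 2 after centring or at 3-fold, and 1 with recovered totals, 50 reads, the highest exon only or the 3'-most exon only. The 0 lower became 1 with the offset left in and 2 without the interval. From L3 to L4 the 3 higher became 8 with mean RPKM or the offset left in, 7 without the interval and 1 without overlapped members, and the 4 lower became 7 with the offset left in or without the interval and 1 with 50 reads. In WTR the 0 higher became 1 with mean RPKM, the offset left in, no interval, or either 3' exon setting, and the 0 lower became 4, 5 and 1 with mean RPKM, the offset left in and no interval.

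Single genes changed sign in 8 cases. Gk165 to WT (L2) became -0.027 for *ttr-51* without overlapped or 3' exons and for *ttr-30* with the highest exon only, and -1.03 for *ttr-41* without the 3' exon. Gk165 to WT (L3) became -0.31 for *ttr-25* with the highest exon only and -1.54 for *ttr-41* without the 3' exon. L3 to L2 became -0.85 for *ttr-8* without overlapped or 3' exons.

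With 1 library per condition, no replicate could be left out. No paired analysis was possible because each condition had 1 library. Depth limits the 13 members not tested in gk165, where 3 reads stand for 10.9 CPM. Replication, batch, worm age and the 3' weighting of the gk165 library cannot be told apart from genotype. The part of the *cup-15* sequence lost with *gk165* was not tested.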
